A study of Mus musculus with 48 samples.

Results

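The CD11b preparation of ethanol-drinking mice was set against the whole tissue it came from. The samples are the 20 libraries titled E_CD or E_TH, of 47 libraries with counts, paired by mouse number into 10 pairs (mice 1, 2, 3, 5, 7, 9, 10, 11, 13 and 14). The mice were C57BL/6, an inbred strain, and drank 15% ethanol by choice on alternate days over 60 days until the bottles were removed and the mice were killed. Ethanol microglia are cells of the medial prefrontal cortex that were dissociated, cleared of myelin on Percoll and pulled down with magnetic beads through CD11b, a surface integrin whose gene is Itgam. Ethanol homogenate is 1% of the same minced tissue, set aside before dissociation, so that what the isolation selects and what it alters in the cells cannot be told apart. Neither age nor sex was stated. Mice that drank only water, with 8 microglial and 9 homogenate libraries, enter here as the most similar comparison. Border macrophages, monocytes and neutrophils bear CD11b too. In bulk RNA, fewer cells of a type and less RNA per cell cannot be told apart.

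Microglia are the resident macrophages of the brain parenchyma. They arise from yolk sac precursors, depend on the colony-stimulating factor 1 receptor and carry a lineage programme under the transcription factor PU.1, encoded by Spi1. They survey tissue through purinergic and pattern recognition receptors and clear debris through phagocytosis and lysosomal digestion. In cortex they are a minority among neurons, astrocytes and oligodendrocytes, so whole tissue reports mostly on the other cells.

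Total gene counts, in megacounts (M), ran from 18.4 M to 32.7 M in microglia, against 24.2 M to 62.4 M in homogenate. Levels are given as CPM, gene counts scaled to a common library total. Microglial libraries held counts for 12617 to 14645 genes and homogenates for 16730 to 17867. Among detected genes 60.9% ± 3.26 had an even count in microglia and 50.9% ± 0.66 in homogenate (SD, n = 10 each), and what made even counts more common was not tested. Intervals and floors below cover counting error only. The homogenates of mice 3, 7 and 14 stood apart, mouse 3 in oligodendrocyte genes, mouse 7 in striatal genes and mouse 14 in vascular and meningeal genes, and mouse 14 also had 6.23% of its homogenate counts in the ribosomal RNA gene Rn45s, against a median of 0.175% over the homogenates.

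The 4 defining markers were far above whole tissue in every isolate. Cx3cr1, the fractalkine receptor (chr9:119901616-120069879 in GRCm38, minus strand), had 4465, 5226 and 5806 CPM in the lowest, median and highest microglial library, against 81.3, 83.1 and 91.3 CPM in homogenates. Tmem119, a microglial surface protein (chr5:113793729-113800516, minus strand), had 1664, 2155 and 2374 CPM in the lowest, median and highest microglial library, against 29.5, 34.6 and 39.2 CPM in homogenates. P2ry12, the ADP receptor that guides microglial processes (chr3:59216272-59262871, minus strand), had 1962, 2293 and 2551 CPM in the lowest, median and highest microglial library, against 37.8, 43.4 and 45.5 CPM in homogenates. No microglial library overlapped a homogenate in any of these genes. Csf1r, the colony-stimulating factor 1 receptor, had 9747, 10470.3 and 11342 CPM in the lowest, median and highest microglial library, against 143, 166 and 189 CPM in homogenates, again without overlap. By edgeR the log2 fold changes were 6.14 (SE 0.06), 6.13 (SE 0.08), 5.93 (SE 0.06) and 6.17 (SE 0.07), and the bead target Itgam stood at 5.89 (SE 0.07). All 30 listed microglial identity genes were higher, with a median of 5.83 and summed levels of 58883 to 70146 CPM in microglia and 2011 to 2542 CPM in homogenate. The label of the preparation therefore matches its markers.

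**Figure D1:**
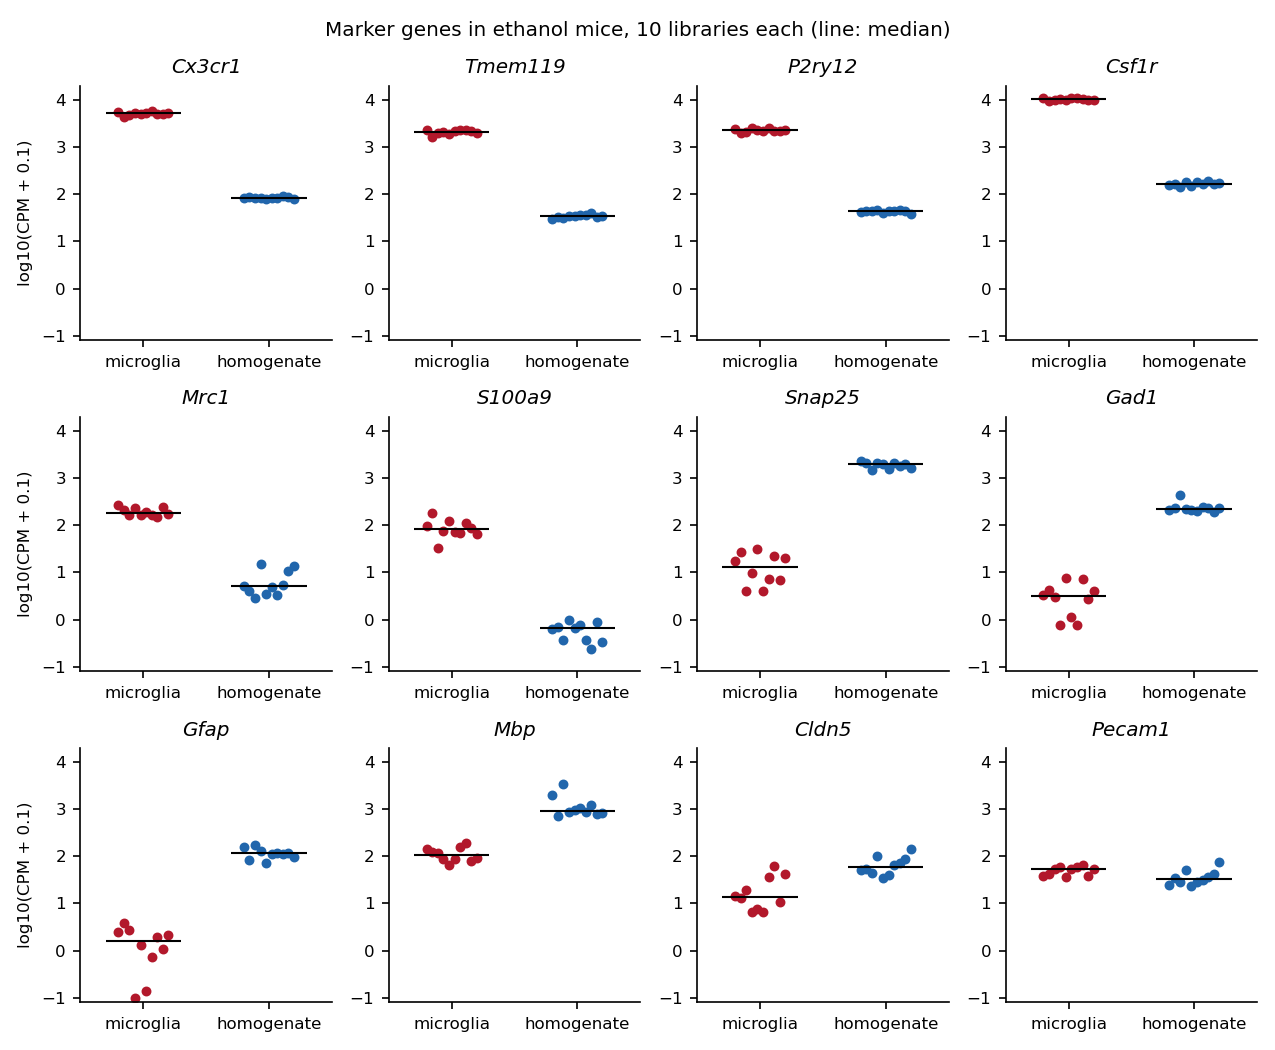
Level of 12 marker genes as log10 of CPM + 0.1 in each library of the ethanol mice, microglia left and homogenate right, with a line at the median. The microglial markers sit above every homogenate, Snap25, Gad1, Gfap and Mbp sit below every homogenate, and Cldn5 and Pecam1 overlap.

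Across all genes the preparations differed almost everywhere. Of 14637 genes tested, 5686 (38.8%) were higher and 6681 (45.6%) lower in microglia at an adjusted p under 0.05 by edgeR's quasi-likelihood test. Tested against a 2-fold minimum, 3177 (21.7%) were higher and 4679 (32%) lower. The 10 microglial libraries lay wholly above or wholly below the 10 homogenates for 9076 genes (62%), 3512 above and 5564 below. Called genes past 16-fold numbered 831 higher and 2421 lower, and past 64-fold 264 higher and 1300 lower. The median log2 fold change was -0.21, and another scaling of the same counts moved the values of single genes by a median of -0.23 (RLE) or -0.20 (library totals only). Genes higher by over 2-fold took 63.1% ± 0.60 of counts in microglia and 10.02% ± 0.47 in homogenate, and genes lower by over 2-fold took 5.22% ± 0.34 in microglia and 55.5% ± 1.89 in homogenate (SD, n = 10 each). The 100 most abundant genes held 25.6% ± 0.84 of counts in microglia and 17% ± 1.92 in homogenate.

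Csf1r headed the gains in CPM, followed by Jun, an AP-1 subunit, with 7085, 9870.2 and 11323 CPM in the lowest, median and highest microglial library, against 62.9, 76.5 and 107 CPM in homogenates. Cst3, the secreted protease inhibitor cystatin C, had 7695, 8592 and 9439 CPM in the lowest, median and highest microglial library, against 748, 824 and 1083 CPM in homogenates. Ctsd, the lysosomal protease cathepsin D, averaged 6997 ± 565 CPM in microglia and 309 ± 15.7 CPM in homogenate (SD, n = 10 each). None of these 4 genes overlapped between preparations. Others among the first 10 were Fosb at 6.65 (SE 0.22), beta-actin (Actb) at 2.70 (SE 0.07), the small GTPase Rhob at 4.65 (SE 0.07), Cx3cr1, and the activity-linked factor Egr1 at 3.78 (SE 0.14) on the log2 scale.

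The greatest proportional gains belonged to genes with few or no counts in whole tissue, among them chemokines and cytokines. The chemokine Cxcl2 had 17.4, 27.0 and 51.5 CPM in the lowest, median and highest microglial library, against 0, 0 and 0.0828 CPM in homogenates, which pools to 5493-fold with a 95% counting interval from 1520 to 45362, since only 2 counts stood in homogenate. The chemokines Ccl4 and Ccl3 had log2 fold changes of 11.54 (SE 0.45) and 11.20 (SE 0.41), or 12.26 and 12.08 without mouse 1. Rgs1, a regulator of G protein signalling, was at 11.25 (SE 0.33) and the cytokine Il1a at 9.85 (SE 0.49). The cytokine Tnf was at 10.96 (SE 0.59), but its homogenate level rested on mouse 7, at 1.18 CPM against a median of 0.0132 CPM, and without that mouse it was at 13.69. The receptor genes Trem1 and Hcar2 had 2 and 3 counts in all homogenates together, and their pooled ratios were 2923-fold (interval 809 to 24147) and 1914-fold (interval 655 to 9287). Clec4e, a pattern recognition lectin, and Fam71a had no counts in homogenate and were at least 781-fold and 2077-fold higher, set against 3 counts over the group. Fam71a lies 5.48 kb from Atf3 on the same strand. Atf3, an early stress transcription factor looked up because of that position after its values were seen, averaged 3228 ± 275 CPM in microglia and 4.55 ± 2.36 CPM in homogenate (SD, n = 10 each). Whether its transcripts contribute to the counts of Fam71a was not tested.

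The transcription factors that define the lineage were nearly all gained. Of 22 listed factors 21 were higher, with a median of 4.35, against 38.8% of all genes. Spi1, which encodes PU.1, had 311, 332 and 413 CPM in the lowest, median and highest microglial library, against 3.63, 4.58 and 6.67 CPM in homogenates. Irf8, its partner in macrophage genes, had 423, 546 and 580 CPM in the lowest, median and highest microglial library, against 5.67, 7.11 and 9.25 CPM in homogenates. The Ikaros factor Ikzf1 stood at 6.43 (SE 0.09) and the C/EBP factor Cebpb at 4.76 (SE 0.09), all without overlap. Mef2c, a factor that neurons also use, was the one not called, at -0.09 with an edgeR adjusted p of 0.388, but it was called lower under RLE scaling and library totals and by DESeq2.

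The letters of a PU.1 site stood in a larger share of the promoters of strongly gained genes than of strongly lost ones. RefSeq windows of 300 bases, from 250 before to 50 after the start of a gene (GRCm38.p6, 1 window a gene), were searched on both strands for GAGGAAGT, the core that PU.1 binds. It occurred in 66 of 619 windows (10.7%) of called genes over 16-fold higher, in 16 of 1657 (0.966%) of those over 16-fold lower, in 10 of 534 (1.87%) of genes within 0.1 on the log2 scale and not called, in 316 of 10918 windows of tested genes (2.89%) and in 887 of all 27025 windows (3.28%). The cyclic AMP response element TGACGTCA, which reads the same on both strands, occurred in 8 of the gained windows (1.29%), 41 of the lost (2.47%), 21 of the little changed (3.93%), 3.19% of tested genes and 1.88% of all windows. The AP-1 site TGACTCA occurred in 45 of the gained (7.27%), 56 of the lost (3.38%), 12 of the little changed (2.25%), 3.4% of tested genes and 5.17% of all. None of the motifs contains another, and a match describes a sequence and no binding. The windows below hold a match in capitals and are shown for 3 gained genes, with the PU.1 letters on either strand, and for 1 lost gene with the response element. Ctss is cathepsin S (chr3:95526536-95526835, plus strand), Vav1 a nucleotide exchange factor of blood cells (chr17:57278850-57279149, plus strand), Havcr2 the checkpoint receptor TIM-3 (chr11:46454681-46454980, plus strand) and Meg3 an imprinted long noncoding RNA of neurons (chr12:109540746-109541045, plus strand).
Ctss: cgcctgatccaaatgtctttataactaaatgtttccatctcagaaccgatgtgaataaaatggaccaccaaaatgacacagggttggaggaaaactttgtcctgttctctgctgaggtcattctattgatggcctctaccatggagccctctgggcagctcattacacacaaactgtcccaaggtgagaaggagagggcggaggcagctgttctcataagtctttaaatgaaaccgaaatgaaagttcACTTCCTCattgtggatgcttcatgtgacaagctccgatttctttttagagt
Vav1: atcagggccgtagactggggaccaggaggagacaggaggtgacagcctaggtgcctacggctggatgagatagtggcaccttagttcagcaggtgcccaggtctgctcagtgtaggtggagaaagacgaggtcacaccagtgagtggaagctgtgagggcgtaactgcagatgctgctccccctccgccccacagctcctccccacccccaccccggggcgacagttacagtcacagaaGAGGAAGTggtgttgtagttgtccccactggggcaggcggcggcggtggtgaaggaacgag
Havcr2: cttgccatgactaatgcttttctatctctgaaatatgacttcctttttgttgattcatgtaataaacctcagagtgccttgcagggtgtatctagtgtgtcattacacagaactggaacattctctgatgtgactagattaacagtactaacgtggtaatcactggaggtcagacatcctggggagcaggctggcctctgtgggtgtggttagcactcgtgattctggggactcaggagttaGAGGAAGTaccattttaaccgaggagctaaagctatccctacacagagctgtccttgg
Meg3: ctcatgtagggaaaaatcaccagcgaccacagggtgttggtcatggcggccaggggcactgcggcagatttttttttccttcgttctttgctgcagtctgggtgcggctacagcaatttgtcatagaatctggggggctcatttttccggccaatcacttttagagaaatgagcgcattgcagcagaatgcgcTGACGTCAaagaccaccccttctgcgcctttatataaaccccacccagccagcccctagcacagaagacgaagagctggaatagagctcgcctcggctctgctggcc
The match begins 2 bases before the start in Ctss, 11 before it in Vav1, 8 before it in Havcr2 and 57 before it in Meg3. Ctss had 2732, 3134 and 3261 CPM in the lowest, median and highest microglial library, against 44.2, 61.3 and 69.6 CPM in homogenates, a log2 fold change of 5.89 (SE 0.09). Vav1 stood at 6.59 (SE 0.09) and Havcr2 at 6.33 (SE 0.10). Meg3 had 2.29, 12.6 and 39.7 CPM in the lowest, median and highest microglial library, against 2850.4, 3793 and 5602 CPM in homogenates, a log2 fold change of -7.54 (SE 0.59). In each of the 4 genes the preparations did not overlap.

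Sensing and signalling genes of innate immunity rose as groups, set against the 38.8% of all genes that were higher. All 23 measured genes of a list of Toll-like receptors with their co-receptors, adaptors and kinases were higher (median 5.64), among them Tlr2, a receptor for bacterial lipoproteins, at 8.14 (SE 0.14), and the nucleic acid receptors Tlr9 at 6.43 (SE 0.10) and Tlr13 at 6.56 (SE 0.14). The receptor chaperone Unc93b1 was at 6.15 (SE 0.10). Of 25 genes of cytokines, their receptors, the inflammasome and NF-kB 24 were higher (median 5.5), with the interleukin 10 receptor Il10ra at 7.19 (SE 0.13) and the NF-kB brake Tnfaip3 at 7.89 (SE 0.16), and the interleukin 1 co-receptor Il1rap was lower at -1.15 (SE 0.11). Of 21 chemokine and chemokine receptor genes 17 were higher (median 6.35). The 4 that were lower are ligands or a decoy made largely by other cells: Cx3cl1, the ligand of Cx3cr1, at -6.66 (SE 0.45), Cxcl12 at -2.10 (SE 0.36), Cxcl14 at -4.79 (SE 0.27) and Ackr1 at -6.11 (SE 0.63), or -6.77 without mouse 2. The receptor Cx3cr1 and its ligand therefore moved in opposite directions, each without overlap between preparations.

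Uptake, digestion and display followed the same direction. Of 34 lysosomal genes 33 were higher (median 2.92), with the carboxypeptidase Ctsa at 3.65 (SE 0.05) and the mannosidase Man2b1 at 4.46 (SE 0.06), and the acid sphingomyelinase Smpd1 was lower at -0.77 (SE 0.07). Of 20 Fc and phagocytic receptors, with some of their ligands and signalling partners, 17 were higher, with the Fc receptor Fcgr3 at 6.11 (SE 0.08) and the lipid receptor Trem2 at 5.68 (SE 0.10). Axl (-1.56) and Megf10 (-3.99), phagocytic receptors that astrocytes also use, were lower. Complement genes divided, with 13 of 22 higher and 5 lower, against 38.8% and 45.6% of all genes. The higher ones include Itgam and the recognition chains C1qa at 5.84 (SE 0.06), C1qb at 5.82 (SE 0.08) and C1qc at 5.79 (SE 0.08). The lower ones include the inhibitor Serping1 at -3.19 (SE 0.80) and the synaptic complement inhibitor Csmd1 at -8.51 (SE 0.49). All 12 measured genes of MHC class II and costimulation (median 5.47) and 16 of 17 genes of MHC class I and its peptide loading (median 3.49) were higher, with the class I light chain B2m at 4.18 (SE 0.13). Of 28 interferon genes 24 were higher (median 2.14), with the transcription factor Irf1 at 5.51 (SE 0.17), while Ifit1 at 0.27, Ifit2 at -0.22, Ifit3 at 0.09 and Ifi44 at -0.37 were not called.

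**Figure D2:**
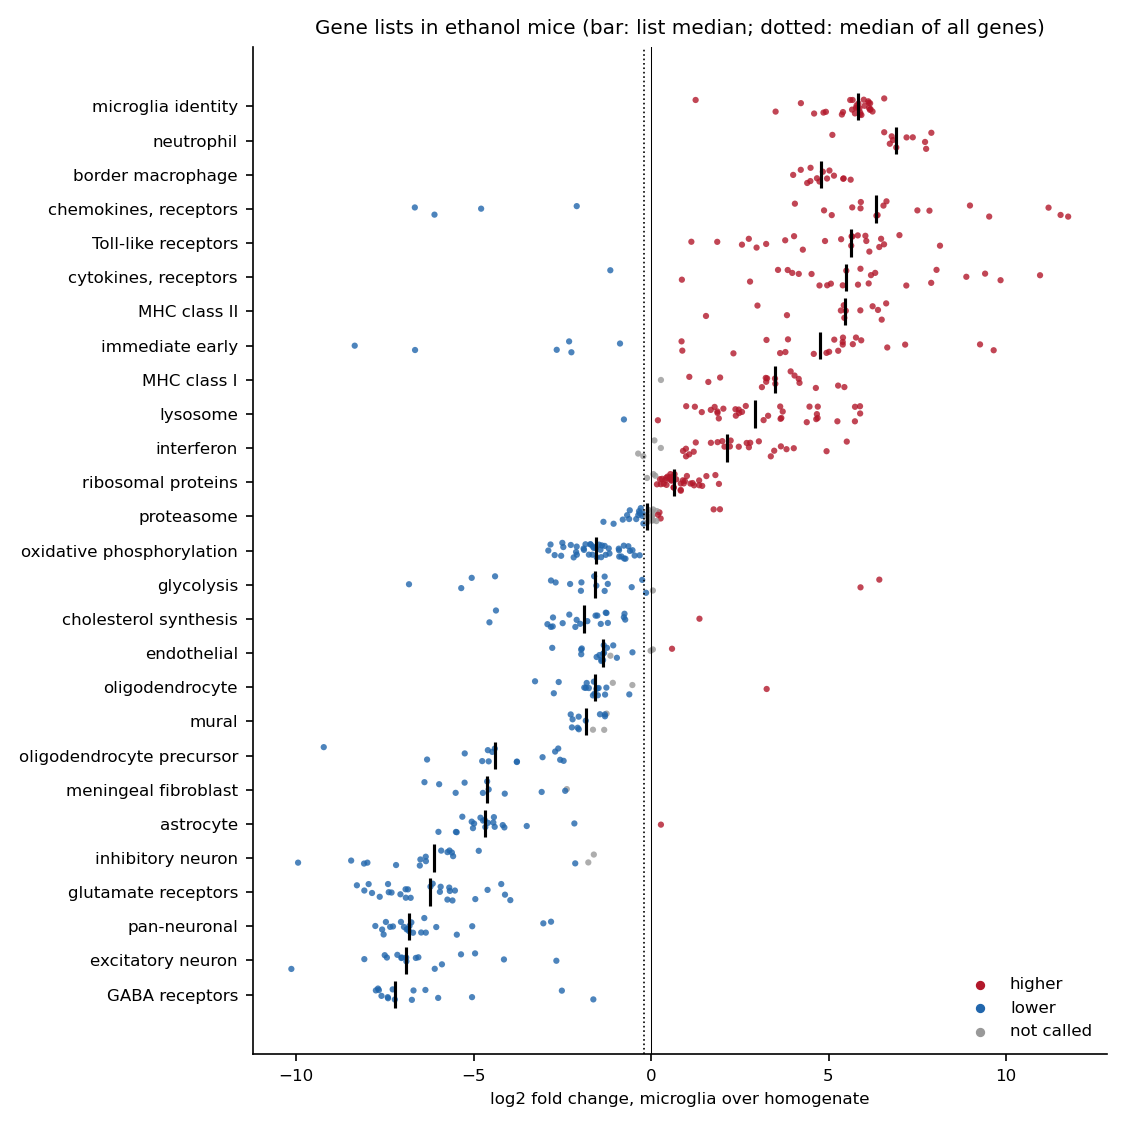
Log2 fold change of microglia over homogenate for each tested member of 27 gene lists, coloured by edgeR call, with a bar at the list median and a dotted line at the median of all genes (-0.21). Immune lists lie right of 0, neuronal, astrocyte and precursor lists lie far left, and ribosomal and proteasome genes lie near 0.

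Genes of disease-associated microglia, a state first described around plaques, divided too. Of 23 measured 16 were higher (median 3.71) and 5 lower, against 38.8% and 45.6% of all genes. The adaptor Tyrobp was at 5.38 (SE 0.10). Apoe, a lipid carrier that astrocytes make in bulk, had 712, 903 and 1276 CPM in the lowest, median and highest microglial library, against 1363, 1626 and 2056 CPM in homogenates, with no overlap and a log2 fold change of -0.66 (SE 0.11). Fth1, the ferritin heavy chain, was at -0.28 (SE 0.07), Lpl at -1.47 (SE 0.35), Axl as above, and Gpnmb at -2.44 (SE 0.96) with no counts in the median microglial library, a call lost without mice 3, 7 and 14, and was at -3.32 without mouse 13.

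Of 22 purinergic and adenosine genes 12 were higher and 10 lower, close for the lower ones to the 45.6% of all genes. P2ry12, P2ry13 at 6.17 (SE 0.10), the ATP-gated channel P2rx7 at 4.75 (SE 0.09) and the nucleoside transporter Slc29a3 at 5.04 (SE 0.07) were gained, while the adenosine receptor Adora1 at -5.35 (SE 0.30), the adenosine kinase Adk at -2.87 (SE 0.24) and the ATP-degrading ectoenzyme Entpd2 at -5.43 (SE 0.61) were lost. In the TGF-beta pathway, which maintains the microglial programme, 15 of 23 were higher and 7 lower, against 38.8% and 45.6% of all genes. The ligand Tgfb1 and the receptors Tgfbr1 and Tgfbr2 were at 5.40 (SE 0.13), 5.61 (SE 0.09) and 4.75 (SE 0.15), while the ligands Tgfb2 and Tgfb3 were at -2.96 (SE 0.47) and -5.5 (SE 0.57) and Itgb8, an integrin that frees the ligand, at -5.03 (SE 0.42). A list of potassium channels and the proton channel Hvcn1 had 21 of 27 genes lower, such as Kcna2 at -5.93 (SE 0.27), and 6 were higher, among them the tandem-pore channels Kcnk6 at 5.62 (SE 0.15) and Kcnk13, the resting channel of microglia, at 3.33 (SE 0.21), and Hvcn1 itself at 6.22 (SE 0.11).

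Immediate early genes, which stimulation and tissue dissociation both switch on, had 22 of 28 members higher and 6 lower (median 4.76). Of all genes 38.8% were higher and 45.6% lower. Their summed level was 45371 to 62282 CPM in microglia and 1959.6 to 4041 CPM in homogenate. Jun, Fosb and Egr1 are given above, and Klf6 stood at 5.16 (SE 0.08), Jund at 3.63 (SE 0.06) and Btg1 at 4.94 (SE 0.11). The lower members include factors that neuronal activity induces: Npas4 had 0, 0.155 and 0.433 CPM in the lowest, median and highest microglial library, against 30.0, 55.4 and 135 CPM in homogenates. Arc, a synaptic effector, had 0.0791, 4.28 and 9.82 CPM in the lowest, median and highest microglial library, against 229.9, 567 and 731 CPM in homogenates. The groups did not overlap in either gene, at -8.35 (SE 0.50) and -6.65 (SE 0.47). Egr3 (-2.25), Nr4a2 (-2.66), Nr4a3 (-2.31) and the matrix protein gene Cyr61 (-0.88) were the others. Heat shock genes were higher in 14 of 18 (median 1.01), 9 of them by over 2-fold, against 38.8% and 21.7% of all genes. The other members were 2 lower and 2 not called. Well above that median stood the chaperone of the endoplasmic reticulum Hspa5 at 3.26 (SE 0.09). So did the inducible Hspa1a, whose near-identical copy makes its counts uncertain, at 6.15 (SE 0.26). Hspa1a ranged from 246 to 1093 CPM between microglial libraries, against 7.38 to 10.5 CPM in homogenate.

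Neuronal RNA was left at a small residue in the isolates. All 22 pan-neuronal genes were lower (median -6.82), set against 45.6% of all genes, as were 17 of 17 excitatory, 15 of 15 GABA receptor and 27 of 27 glutamate receptor and synapse genes, and 16 of 18 inhibitory neuron genes. Snap25, a vesicle fusion protein, had 3.97, 13.6 and 32.0 CPM in the lowest, median and highest microglial library, against 1533, 1988 and 2355 CPM in homogenates. Slc17a7, the vesicular glutamate transporter of cortical neurons, had 1.44, 8.10 and 19.5 CPM in the lowest, median and highest microglial library, against 1527, 1873 and 2527 CPM in homogenates. Gad1, which makes GABA, had 0.673, 3.02 and 7.59 CPM in the lowest, median and highest microglial library, against 194, 227 and 438 CPM in homogenates. No isolate reached a homogenate in these 3 genes, which stood at -6.76 (SE 0.43), -7.51 (SE 0.48) and -5.92 (SE 0.41). The summed pan-neuronal level was 0.279%, 0.62% and 1.48% of the same mouse's homogenate in the lowest, median and highest pair. Among the greatest losses in CPM were Camk2a, a synaptic kinase, at -6.90 (SE 0.29), the astrocytic glutamate transporter Slc1a2 at -5.5 (SE 0.24), the kinesin Kif5a at -6.28 (SE 0.33), and Meg3.

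In proportion, the greatest losses had no or hardly any counts in microglia. Dnah5, an axonemal dynein (chr15:28203752-28472052, plus strand), had no counts in 10 isolates, against 10.6, 12.8 and 18.5 CPM in the lowest, median and highest homogenate, and was at least 1204-fold lower, set against 3 counts over the group. Clec18a, Gpr25, Thpo and the neuropeptide gene Grp likewise had none in microglia and were at least 997-fold, 637-fold, 617-fold and 508-fold lower. Clec18a ranged from 0.511 to 23 CPM among homogenates. Thpo, which encodes thrombopoietin, overlaps Chrd on the opposite strand, and reads of the pair could be mixed. Emx1, a transcription factor of cortical excitatory lineages, and the channel gene Kcna4 had 1 and 2 counts in microglia and were 4183-fold lower (95% counting interval 750 to 165244) and 3538-fold lower (979 to 29217). Fstl5, Gpr12 and Ccbe1 complete the first 10, at 3995-fold, 3666-fold and 2286-fold lower with 1, 1 and 2 counts in microglia and counting intervals that start at 717, 658 and 633.

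Glial and vascular genes were lower to unequal degrees, set against the 45.6% of all genes that were lower. Of 20 astrocyte genes 19 were lower (median -4.68), with the filament Gfap, which had 0, 1.50 and 3.67 CPM in the lowest, median and highest microglial library, against 71.3, 116 and 173 CPM in homogenates, and the water channel Aqp4 at -4.69 (SE 0.36). Glul, glutamine synthetase, was the exception, with 1962, 2403 and 2672 CPM in the lowest, median and highest microglial library, against 1774, 2339 and 2554 CPM in homogenates. Those ranges overlap, and its log2 fold change of 0.28 (SE 0.08) lost its call under both other scalings, by DESeq2 and without mice 3, 7 and 14. All 15 precursor genes were lower (median -4.41), with Pdgfra at -4.58 (SE 0.58). Of 20 oligodendrocyte genes 17 were lower, but by a median of only -1.57. Myelin basic protein Mbp had 67.0, 105 and 190.1 CPM in the lowest, median and highest microglial library, against 720.4, 919 and 3471 CPM in homogenates. The preparations did not overlap in Mbp, at -3.27 (SE 0.30). Trf, transferrin, is listed with oligodendrocytes yet had 1306, 1457 and 1584 CPM in the lowest, median and highest microglial library, against 95.8, 136 and 500.4 CPM in homogenates, all isolates above all homogenates, at 3.26 (SE 0.25). With Trf, the summed oligodendrocyte level was 21.6%, 80.4% and 117% of the paired homogenate in the lowest, median and highest mouse. The homogenate of mouse 3 held the highest level of both genes, and the median of the list was -1.09 without mice 3, 7 and 14 (an omission added once values were known).

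Vascular genes were depleted only in part. Of 20 endothelial genes 16 were lower (median -1.34), 3 of them by over 2-fold, against 45.6% and 32% of all genes. The summed endothelial level was 21.6%, 41.1% and 103% of the paired homogenate in the lowest, median and highest mouse. Mural cells, which wrap vessels, had 10 of 13 lower, 6 of them by over 2-fold, and 7.27%, 23.5% and 64%. Meningeal fibroblast genes had 10 of 11 lower, all 10 by over 2-fold, and 1.26%, 9.40% and 15.6%. The isolate of mouse 11 had the highest endothelial and mural sums, 993 and 230 CPM, and its endothelial sum exceeded that of its own homogenate. Cldn5, a tight junction gene, had 6.36, 13.5 and 62.1 CPM in the lowest, median and highest microglial library, against 35.5, 58.9 and 142 CPM in homogenates. Its ranges overlapped, at -1.46 (SE 0.42). Pecam1, an adhesion protein that blood cells also carry, was higher at 0.59 (SE 0.19), also with overlap, and lost that call under RLE scaling and by DESeq2. Acta2, the actin of smooth muscle, was at -1.32 and not called, with an edgeR adjusted p of 0.0601, but was called lower under both other scalings, by DESeq2 and without mouse 2, 3 or 11.

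**Figure D3:**
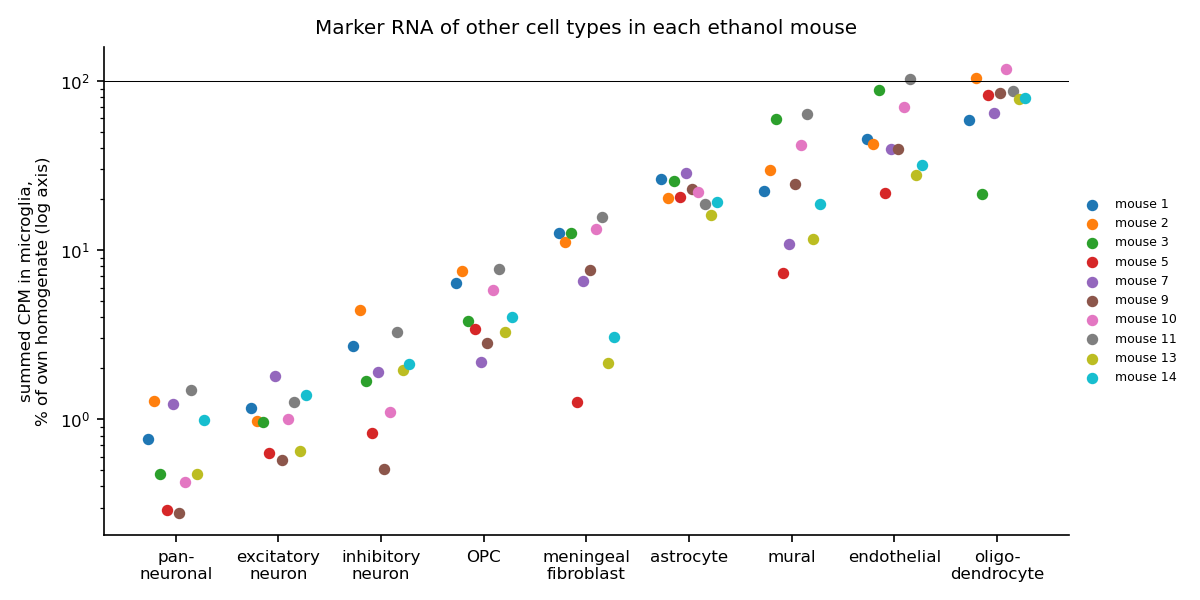
Summed CPM of 9 marker lists in the isolate of each mouse as a percentage of the same mouse's homogenate (log axis, line at 100%), 1 colour per mouse. Neuronal lists lie between 0.279% and 4.44%, whereas endothelial and oligodendrocyte lists reach above 100% in single mice. The astrocyte sum includes Glul and the oligodendrocyte sum Trf, neither of which was lower in the isolates. At its median level, each is most of the median sum of its list in the isolates. OPC is oligodendrocyte precursor.

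The residue of RNA from other cells varied between mice. The genes with the widest spread of the paired log2 ratio, among those with a count in every library, were all lower in the isolates. Aebp1, Dpysl5, Foxo6, Nsg1, Stard13, Camkv and Clstn3 head them, with an SD over the 10 pairs of 2.96 to 2.67 on the log2 scale. This spread holds that of the homogenates too. Aebp1 had 116 CPM in the homogenate of mouse 14 against a homogenate median of 11.3 CPM. Foxo6 had 53.4 CPM in that of mouse 7 against a median of 17.1 CPM. Nsg1, a neuronal endosomal protein, had 0.0396, 1.68 and 6.57 CPM in the lowest, median and highest microglial library, against 169.9, 189 and 227 CPM in homogenates. Camkv, a kinase-like synaptic protein, had 0.034, 3.12 and 5.99 CPM in the lowest, median and highest microglial library, against 488, 538 and 772 CPM in homogenates. In both genes the isolates differed among themselves far more than the homogenates did. The lowest isolate levels of both rest on few counts, so counting noise adds to that spread. Pan-neuronal sums were lowest in the isolates of mice 5 and 9, at 52.8 and 53.6 CPM, and highest in that of mouse 11, at 244 CPM.

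Markers of other CD11b-bearing cells were gained as well. All 14 border macrophage genes were higher (median 4.79), summing to 1843 to 2507 CPM in microglia and 39.6 to 105 CPM in homogenate. Mrc1, the mannose receptor, had 147, 183 and 272 CPM in the lowest, median and highest microglial library, against 2.82, 4.99 and 15.3 CPM in homogenates. Cd163, the haemoglobin scavenger receptor, had 29.5, 44.6 and 74.1 CPM in the lowest, median and highest microglial library, against 0.384, 1.43 and 3.87 CPM in homogenates. Both were without overlap, at 5.03 (SE 0.33) and 4.96 (SE 0.37), and the platelet factor gene Pf4 and the hyaluronan receptor gene Lyve1 stood at 4.74 (SE 0.42) and 4.22 (SE 0.48), the second at 4.84 without mouse 14. Members other than Mrc1, Cd163, Pf4 and Lyve1 made up most of the border macrophage sum in every isolate. All 11 measured neutrophil genes were higher (median 6.91), summing to 865 to 1584 CPM in microglia and 10.7 to 17.5 CPM in homogenate. Csf3r, a granulocyte receptor that microglia also express, made up most of that sum at 817 ± 70.2 CPM in microglia and 9.85 ± 1.42 CPM in homogenate (SD, n = 10 each). The granule proteins were lower in level: S100a8 had 14.8, 49.5 and 86.5 CPM in the lowest, median and highest microglial library, against 0.0641, 0.56 and 1.02 CPM in homogenates, S100a9 stood at 7.72 (SE 0.38) and Ngp at 7.90 (SE 0.61). Monocyte genes were 3 higher, 2 lower and 1 not called of 6, few genes to set against the 38.8% and 45.6% of all. Ccr2, the receptor that draws monocytes into tissue, was at 5.09 (SE 0.42). The list summed to 63.3 to 177 CPM in microglia and 101 to 300.1 CPM in homogenate. The lower members are the matrix genes Vcan (-2.56) and Fn1 (-0.76), which other cells also make, and the list median of 2.91 turned to -1.66 under a stricter filter that left fewer members. Ly6c2, a monocyte surface gene that did not pass edgeR's filter on low counts and was not tested, was at 0 in 2 of 10 isolates. In every other isolate it lay above all homogenates, at 0.475 to 5.19 CPM, against at most 0.138 CPM in homogenate. The T cell gene Cd3e was at 0 in 9 of 10 isolates and the B cell gene Cd79a in 8. The haemoglobin genes Hba-a1 and Hbb-bs were listed at 0 in all 20 libraries. The erythroid genes Alas2 and Slc4a1 summed to 1.82 to 43.1 CPM in microglia and 0.887 to 4.11 CPM in homogenate, the highest isolate being that of mouse 11. The part these cells have in the gains of immune genes was not tested.

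Metabolic lists differed in direction, set against the 38.8% of all genes that were higher and the 45.6% that were lower. All 42 measured oxidative phosphorylation genes were lower (median -1.55), with the cytochrome oxidase subunit Cox4i1 at -1.89 (SE 0.05). Of 22 genes of cholesterol synthesis and its regulation 21 were lower (median -1.90), and Ebp was higher at 1.36 (SE 0.16). Of 20 genes of glycolysis and glucose uptake 17 were lower (median -1.58), and the hexokinases Hk2 and Hk3 were higher. Ribosomal protein genes were higher in 35 of 38, by a median of 0.64. Among 31 proteasome genes 5 were higher and 14 lower, the lower share being near the 45.6% of all genes, and the interferon-linked activators Psme1 at 1.94 (SE 0.08) and Psme2 at 1.76 (SE 0.11) stood apart from a list median of -0.11. Of 25 cell cycle genes listed, 21 were measured, of which 13 were higher and 0 lower (median 0.89), against 38.8% and 45.6% of all genes. Of the 21 measured, 6 were higher by over 2-fold, a share not below the 21.7% of all genes. The replication factors Pcna at 2.59 (SE 0.08) and Mcm3 at 4.70 (SE 0.17) were among the higher ones. The 8 not called include cyclins and mitotic kinases. Common reference genes did not stay level: the list median of 0.15 turned negative under RLE scaling and library totals, Gapdh was at -1.31 (SE 0.07) and Hprt at -0.46 (SE 0.11), while Actb was at 2.70. Of 10 genes that handle ethanol, acetaldehyde or acetate, 5 were higher and 4 lower, shares not far from the 38.8% and 45.6% of all genes. Catalase (Cat) was at 1.21 (SE 0.08), the mitochondrial acetate enzyme Acss1 at 1.88 (SE 0.09), its cytosolic partner Acss2 at -3.25 (SE 0.25) and Aldh1a1, an aldehyde dehydrogenase, at -4.73 (SE 0.47). Aldh2, the main acetaldehyde dehydrogenase, was not called at -0.06 (SE 0.11), but was called lower under both other scalings and by DESeq2.

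Related genes could be set side by side per length (TPM, counts over exon length scaled to a fixed total). The 34 pairs tested were chosen with one member in mind for microglia and the other for whole tissue, and Hk1 enters more than once, so that the 19 pairs with opposite calls and the 19 of 33 with opposite TPM order describe the choice and support nothing. Hk1, the brain form, was at 30.1 TPM in microglia and 270.1 TPM in homogenate, and Hk2 was at 299 TPM in microglia and 6.97 TPM in homogenate. Their log2 fold changes were -2.69 (SE 0.06) and 5.90 (SE 0.16), and Hk3 was at 6.43 (SE 0.10). The synaptic dynamin Dnm1 was at 5.77 TPM in microglia and 1256 TPM in homogenate, while the ubiquitous Dnm2 was at 354 TPM in microglia and 65.0 TPM in homogenate. Fusion proteins changed likewise, with Snap25 at 9.03 TPM in microglia and 1404 TPM in homogenate and Snap23 at 66.4 TPM in microglia and 16.5 TPM in homogenate. Of the sugar transporters, the neuronal Slc2a3 stood at -2.82 (SE 0.18) and the microglial fructose transporter Slc2a5 at 6.12 (SE 0.09). Dock3 and Dock2, exchange factors for Rac, stood at -6.87 (SE 0.34) and 6.13 (SE 0.08), and the Ikaros factors Ikzf4 and Ikzf1 at -6.36 (SE 0.66) and 6.43 (SE 0.09), with Ikzf4 at -7.44 without mouse 3.

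**Figure D4:**
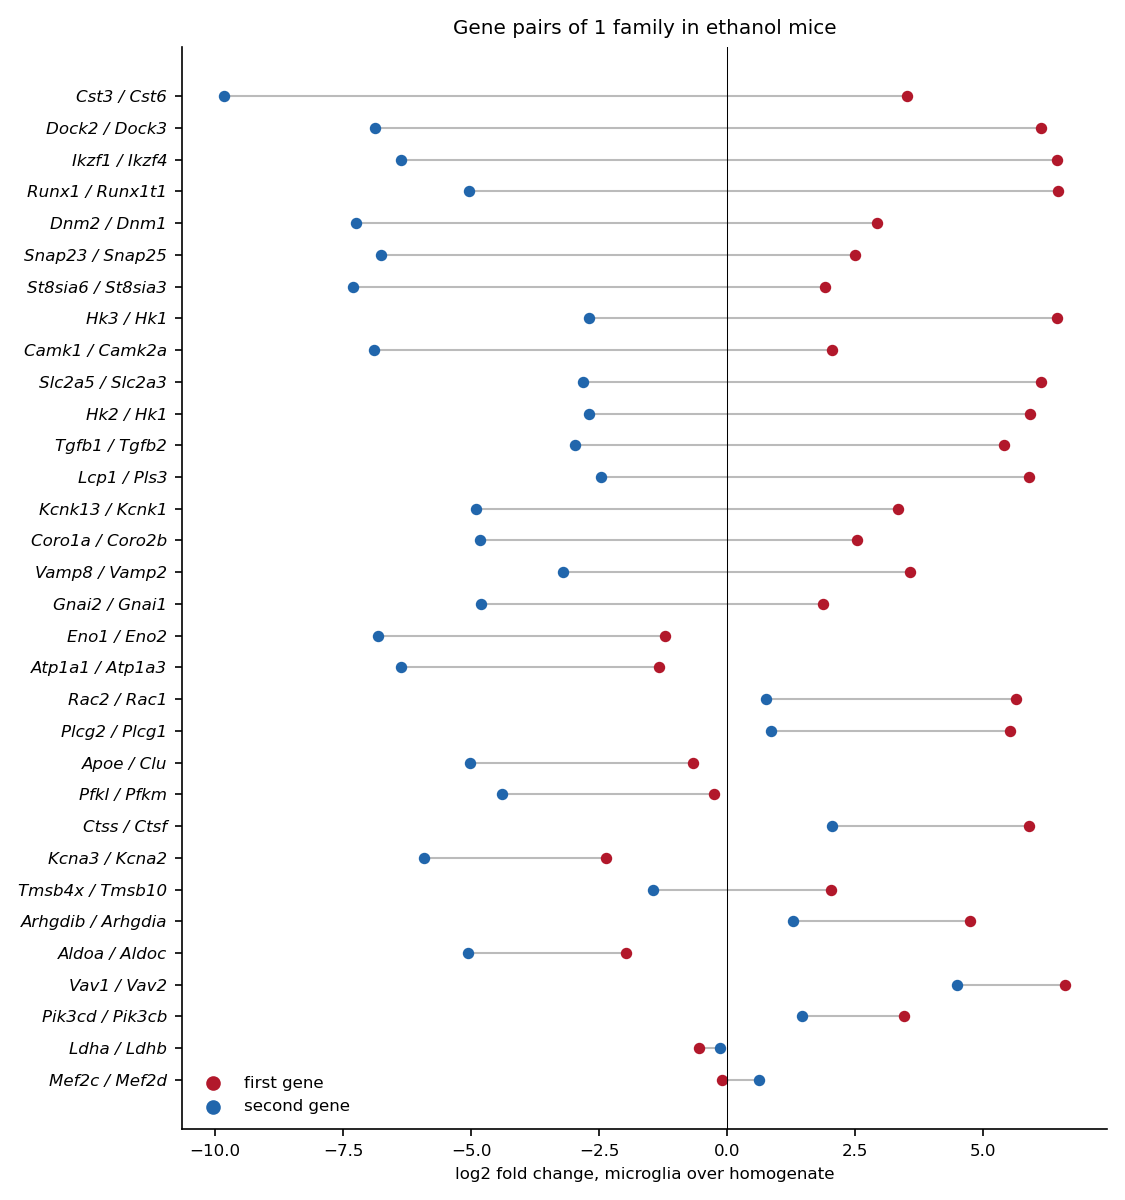
Log2 fold change of microglia over homogenate for both members of 32 gene pairs, red for the first-named and blue for the second-named gene of each row. In 18 rows the points lie on either side of 0, both called.

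A minority of genes hardly differed. Within 0.1 on the log2 scale and not called were 668 genes, of which the most abundant were Mycbp2, Mef2c, Ddx17, Ptms and Ubr4. The RNA helicase Ddx17 had 446, 494 and 552 CPM in the lowest, median and highest microglial library, against 479, 527 and 691 CPM in homogenates. The ubiquitin ligase Mycbp2, known from axons, had 342, 498 and 695 CPM in the lowest, median and highest microglial library, against 529, 618 and 678 CPM in homogenates. Libraries of the groups overlapped in both, at 0.05 (SE 0.06) and -0.05 (SE 0.09). Ddx17 changed sign and was called lower under both other scalings and by DESeq2, as was Ptms, at 0.06 (SE 0.08), under RLE scaling and by DESeq2, and Mycbp2 was called lower under all 3. Gene span and biotype went with direction as a description over genes that are not independent: of 4 equal bins of genes by span, the longest (61.9 kb to 2961 kb) had 57.8% lower and a median of -1.03, against medians from -0.19 to 0.04 in the other 3 bins. Of 123 long intergenic RNAs 63.4% were lower (median -2.53), and of 13380 protein-coding genes 45.5% (median -0.18).

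The same comparison in water mice shares no library with that in ethanol mice. Of the 9 water homogenates 4 carry the isolation protocol in their labels, against their titles. They had 74.0 to 91.3 CPM of Cx3cr1 and 1837 to 2185 CPM of Snap25, near the other 5 at 68.3 to 79.7 and 2049.8 to 2984 CPM and far from the 8 water isolates at 3935 to 5428 and 6.79 to 31.2 CPM. The microglia of 1 further water mouse were not analysed here. The isolate of water mouse 24 had 9.72 M gene counts, 10.3% of them in Rn45s, against 0.0785% to 0.677% in the other water isolates. Reads in no gene were 56.1% of its counted reads, against 19.9% to 27.1% in the others. It was kept in all fits of the water mice, and its effect on them was not tested. In water mice 12712 of 15057 genes (84.4%) differed by edgeR, or 11976 without those 4 homogenates. Of 14580 genes tested in both, 11533 were called in the same direction and 14 in opposite directions. All 14 were higher in ethanol mice, at 0.16 to 0.59, and lower in water mice, at -0.13 to -0.72. RLE scaling took the median of all genes from -0.21 to -0.43 in ethanol mice, but from -0.37 to -0.39 in water mice. Calls this near 0 can change with the scaling, as for Nol10 below. Csf1r stood at 6.17 in ethanol mice and 6.06 in water mice, Snap25 at -6.76 and -7.40, Mbp at -3.27 and -4.45, and the oligodendrocyte list had medians of -1.57 and -3.15. The difference between the 2 comparisons, tested as an interaction, passed for 54 of 15797 genes (0.342%), 25 of them positive and 29 negative, and for none when the mouse entered as a block of its paired libraries, where 1132 had an unadjusted p under 0.05. DESeq2 called 265, and edgeR called 12 without those 4 water homogenates, an omission added once values were known. Apart from Nol10, none of the genes named above passed the interaction without the block.

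**Figure D5:**
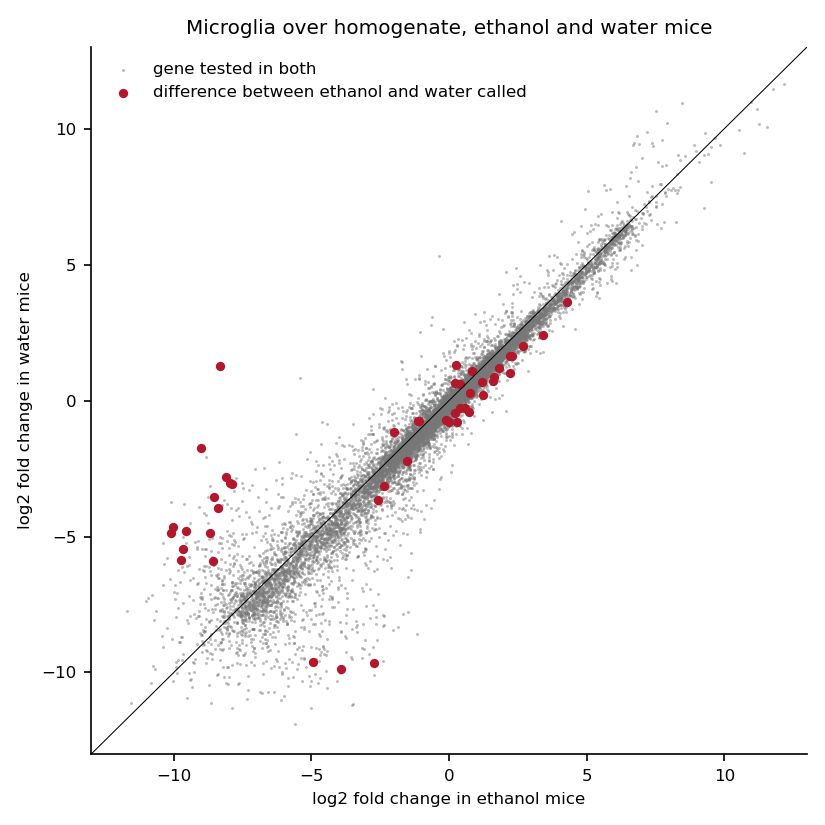
Log2 fold change of microglia over homogenate for 14580 genes in ethanol mice (horizontal) and water mice (vertical), with the line of equality and, in red, genes whose difference between ethanol and water mice was called without the mouse as a block. Most genes lie along the line, and the spread is widest among strongly lost genes with few counts in microglia.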

How the data were processed

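Poly(A) RNA was sequenced as directional libraries with 75 base paired reads, per the labels' protocols. The authors deposited raw read counts per gene symbol, and bcl2fastq 2.15.0.4, FastQC, STAR, HTSeq, DESeq2 and mm10 are named in the submitters' processing notes. Counting settings, strand included, were not given in the sources used here, so reads of overlapping genes could be mixed. The 5 tally lines of each file were left out of totals and tests, and the lines for reads in no gene held 20.0% to 38.5% of all counted reads in microglia and 20.0% to 36.6% in homogenate.

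Of 24062 genes, 14637 passed edgeR's filter on low counts. The 20 libraries were scaled by TMM and fitted with edgeR 4.0.16 (R 4.3.3, limma 3.58.1) using the quasi-likelihood test, without the mouse as a block, at a Benjamini-Hochberg adjusted p under 0.05 over all genes. A 2-fold minimum was tested with glmTreat. The scripts were tested on simulated data. CPM are counts scaled to a common total of gene counts, and TPM use the exon lengths of GENCODE M21. Each file is 1 library, and the mouse is the replicate. Libraries of 1 number come from the same mouse, per the labels' protocols, so the numbers pair them. Deviations of paired libraries from their group means correlated with a median of 0.0195 (-0.0244 to 0.107). Within each preparation every pair of libraries differed beyond sampling noise.

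Genes were named by a rule: the 10 most extreme by fold, by CPM gained or lost, by stability and by spread between mice, up to 4 members of each list with the smallest p and any member against its majority, markers and related pairs. Names outside it are marked, and some genes it selects are not reported here. The members and lists were chosen with earlier results of these data known. Alternatives covered scaling, filters, DESeq2 1.42.0, the block, 10 omissions of 1 mouse, runs inferred from sample numbers, and omission of mice 3, 7 and 14. Promoter sequences are from RefSeq (GRCm38.p6), of which 10918 matched tested genes by symbol.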

Additional observations from a re-analysis of the deposited data

Results flagged for a closer look

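In 59 of 422 groups of 10 libraries, each one gene or one summed list in one preparation, 1 library lay far from the other 9, by a gap to its neighbour of over 0.466 of the whole range. Chance flags about 1 group in 20, and genes of a list share their libraries. That rate does not apply where the other 9 libraries are at 0, since any count in 1 library then meets the limit by construction, as for Fstl5, Gpr12, Emx1, Cxcl2 and Trem1. Levels below are CPM, with the nearest other library in parentheses, and none of these single libraries was explained. For Apoe (1276, next 1012), mouse 1 had by far the highest isolate. The isolate of mouse 2 was far above the others for Fstl5 (0.0305, next 0), Gpr12 (0.0305, next 0), Nsg1 (6.57, next 3.25), Spi1 (413, next 363), Tlr2 (481, next 391) and the MHC class I sum (6053, next 5357). That of mouse 2 was far below the others for Jun (7085, next 9198) and the microglia transcription factors sum (12007, next 13405). The isolate of mouse 3 was far above the others for Ikzf4 (0.953, next 0.327). That of mouse 3 was far below the others for Ctss (2732, next 2979). The isolate of mouse 11 was far above the others for Cxcl12 (76.9, next 41.4), Cyr61 (28.2, next 15.9), Psme1 (92.6, next 77.7) and the erythroid sum (43.1, next 14.7). For Gpnmb (2.12, next 1.07), mouse 13 had by far the highest isolate. The isolate of mouse 14 was far above the others for Emx1 (0.0464, next 0).

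For Ackr1 (63.8, next 45.3), Ccl3 (0.536, next 0.282) and Tnfaip3 (13.1, next 8.74), mouse 1 had by far the highest homogenate. The homogenate of mouse 3 was far above the others for Ddx17 (691, next 589), Gad1 (438, next 239), Ifit2 (20.0, next 13.1), Kcnk13 (16.5, next 8.97), Mbp (3471, next 2021), Megf10 (73.4, next 54.7), Trf (500.4, next 242), Vcan (53.1, next 30.9), the oligodendrocyte sum (9248, next 4717) and the cell cycle sum (129, next 89.8). That of mouse 3 was far below the others for Camk2a (3181, next 5031), Cxcl14 (71.0, next 94.5) and the excitatory neuron sum (6734, next 9460.2). The homogenate of mouse 5 was far above the others for Cyr61 (72.5, next 36.3). For Camkv (772, next 577), Ebp (15.2, next 11.4), Foxo6 (53.4, next 23.5), Thpo (14.6, next 7.82), Tnf (1.18, next 0.061), Trem1 (0.0512, next 0) and the striatal neuron sum (595, next 409), mouse 7 had by far the highest homogenate. The homogenate of mouse 9 was far above the others for Cxcl2 (0.0828, next 0) and Tlr9 (4.35, next 3.33). For Hcar2 (0.0688, next 0.0265), mouse 10 had by far the highest homogenate. The homogenate of mouse 14 was far above the others for Acta2 (124, next 54.8), Aebp1 (116, next 45.4), Fn1 (272, next 179.8), Ifit1 (7.42, next 3.29), Lyve1 (3.99, next 1.44), P2rx7 (17.1, next 13.5), Pecam1 (76.3, next 50.7), Psme2 (18.6, next 15.4), Serping1 (23.8, next 9.01), Tgfb3 (34.7, next 20.5), the monocyte sum (300.1, next 204), the mural sum (901, next 593), the meningeal fibroblast sum (826, next 418), the MHC class II sum (45, next 30.6) and the interferon sum (263, next 214).

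The enrichment differed between ethanol and water mice, by the test of the difference, in 3 genes picked out after their values were seen because they were called in opposite directions. Tspan9 had a log2 fold change of 0.59 in ethanol mice and -0.26 in water mice, a difference of 0.73 in the joint fit of all 37 libraries (edgeR interaction, adjusted p = 0.0211). Asb6 had a log2 fold change of 0.40 in ethanol mice and -0.28 in water mice, a difference of 0.55 (edgeR interaction, adjusted p = 0.0395). Nol10 had a log2 fold change of 0.23 in ethanol mice and -0.47 in water mice, a difference of 0.57 (edgeR interaction, adjusted p = 0.0473). With the mouse as a block of its paired libraries no gene passed this test, and 1132 had an unadjusted p under 0.05. The call of Nol10 in ethanol mice alone was also lost under both other scalings, by DESeq2, with the block, with no filter, in both runs inferred from sample numbers, without mouse 2, 7, 11 or 14, and without mice 3, 7 and 14.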

How the results depend on the processing

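The count of 12367 genes differing in ethanol mice stayed within 1.5 times under every alternative run, between 9673 (stricter filter) and 14946 (no filter). It was 12345 with the mouse as a block of its paired libraries (5486 higher and 6859 lower), 12162 to 12328 leaving out 1 mouse, 10396 and 11238 within the runs inferred from sample numbers (mice 2, 3, 5 and 7, and mice 9, 10, 11 and 14), and 11994 without mice 3, 7 and 14, an omission chosen after seeing the data. The split into 5686 higher and 6681 lower moved more than the total. It was 5025 and 7445 under RLE scaling, 5118 and 7328 under library totals, and 5055 and 7513 by DESeq2. The shares of 38.8% and 45.6% of all genes therefore depend on the scaling. The count over 2-fold was 7749 to 7902 leaving out 1 mouse, 8075 with the block, and 5001 against a 4-fold minimum, which is stricter by construction. In water mice the count ran from 9430 to 14717. The 54 genes of the interaction became 7 under the stricter filter, which tests fewer genes, 12 with fewer samples, without the 4 water homogenates that carry the isolation protocol in their labels (an omission also chosen after seeing the data), 265 with DESeq2 and 0 with the mouse as a block, and the cause of the last 2 was not tested.

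Of 167 named genes 147 kept direction and call under every alternative run on them. Ddx17 turned to -0.18 (RLE scaling), -0.15 (library totals) and -0.18 (DESeq2), and Ptms to -0.17 (RLE scaling) and -0.17 (DESeq2). The monocyte median turned to -1.66 under the stricter filter, which leaves fewer members, and that of common reference genes to -0.0847 (RLE scaling), -0.0490 (library totals), -0.0854 (DESeq2) and -0.0384 (run of mice 2, 3, 5 and 7), for which the cause was not tested. With 4 mice, the calls of Cldn5, Cyr61, Fn1, Fth1, Glul, Gpnmb, Hprt and Pecam1 were lost in the run of mice 9, 10, 11 and 14, and those of Aebp1, Asb6, Lpl, Serping1 and Stard13 in the run of mice 2, 3, 5 and 7. Among named genes the block ended the call of Nol10 and no other. Depth limits genes with few counts in microglia, whose folds are bounds or wide counting intervals.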

Other observations

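Genes of cell types from neighbouring structures were mostly lower in the isolates than in the homogenates. All 8 measured genes of a list for striatal projection neurons were lower in microglia (median -5.58, or -6.25 without mouse 11), summing to 2.74 to 10.05 CPM in microglia and 220.1 to 595 CPM in homogenate, highest in mouse 7. Of 6 measured ependymal and choroid plexus genes 4 were lower and 2 not called, against 45.6% of all genes lower. Their sums were 0.914 to 9 CPM in microglia and 9.43 to 21.7 CPM in homogenate. Ttr, the transthyretin gene that choroid plexus expresses strongly, had no counts in 9 of 10 isolates and a median of 1.21 CPM in homogenate. Lymphocyte genes were mostly too low to test: 3 of 18 were measured, of which Cd4, which macrophages can also carry, and the B cell receptor gene Cd79b were higher, at 3.23 and 5.40 on the log2 scale.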
